A study of Zea mays with 50 samples.

Results

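When 23 putative phasiRNA regulators, and GFP as a control, were expressed one by one in maize leaf protoplasts, some transcripts kept nearly the same level in every library. The 200 steadiest are described here. They were chosen from the measured values: of 30213 rows in the expression table, 6214 had a mean of at least 20 RPKM (reads scaled by the length of the row and the size of the library) over all 50 libraries, and the 200 with the lowest coefficient of variation (CV, the SD over the mean of the RPKM) were taken. They are 3.22% of the 6214. Because all 50 libraries entered the choice, every value of these transcripts in the same libraries is a description, and steadiness itself is not a result.

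A transcript's level in a cell is set by the balance of synthesis and decay. Transcripts for core functions such as protein synthesis, phosphorylation signalling and chromatin upkeep are often treated as stable, and PCR work uses a few of them (actin, tubulin, ubiquitin-conjugating enzyme, GAPDH, elongation factor 1-alpha) as references against which other transcripts are scaled. Gene families often hold a copy used in most cells beside copies used under stress or in certain tissues.

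The cells were protoplasts (cells without walls) from leaves of B73 seedlings, more than 10 of them, raised in the dark at 25 °C for 10 to 12 days. Each regulator was expressed transiently from the 35S promoter as a fusion to GFP, at the C-terminus for ZFL2 and at the N-terminus for the others, and the control cells expressed GFP alone from 35S. bHLH103, CSD4, DOF25, HSF2, NAC119, NAC29, OCL4, TCP23, ZFL2, ZHD5 and ZIM13 had 1 library each in protoplast preparations (preps) 1 and 3. In preps 2 and 4 there was 1 library each of ABI5, bHLH97, DOF7, EREB50, EREB69, GBP15, MYB131, NAC25, OFP9, WRKY81, ZFL1 and ZHD4. GFP had 1 library in each of the 4 preps, so a group is 2 libraries from separate preps of pooled seedlings, and its spread is that between preps.

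Polyadenylated RNA was sequenced, and read totals recovered from the RPKM steps were 6830505 to 11875644 in 48 libraries and 28153206 and 29950336 in the EREB69 libraries. RPKM gives shares of a library, so a change of all mRNA in a cell is not seen, and in bulk RNA fewer cells of a type and less RNA per cell cannot be told apart. Of the leaf markers looked up, the mesophyll gene Ppdk1 stood at 173 ± 84.9 RPKM (SD, n = 50) with a CV of 49.1%, the mesophyll gene pep1 at 0.392 RPKM, the bundle sheath gene me3 at 9.44 RPKM and the epidermal gene gl1 at 0.250 RPKM. Of the 10 marker rows found, only Ppdk1, mdh6 and ocl4 reached the minimum mean of the rule, and ocl4 was itself introduced in its own libraries. None of the 10 was among the steady transcripts, and nothing is read from this.

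The steady transcripts had CVs from 4.30% to 6.45%, with a median of 6.0%, where all 6214 rows of at least 20 RPKM had a median of 13% and quartiles of 9.57% and 19.0%. Just inside the limit of 200 stood GRMZM2G109039, GRMZM2G069177 and GRMZM2G162798, at 6.45% each. Just outside stood GRMZM2G300841, GRMZM2G007381 and GRMZM2G169184, at 6.46% each, so the limit does not fall at a gap. The steadiest row, GRMZM2G427337, lay between 22.8 and 27.4 RPKM in the 50 libraries and carried no name in the reference table. Over the 200, the highest library exceeded the lowest by 1.19-fold to 1.47-fold, with a median of 1.31-fold, and the median for all rows of at least 20 RPKM was 1.80-fold.

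Only 2 transcripts stayed within 10% of their own mean in all 50 libraries, and both are among the 200. Within 15% stayed 108 of the 200 and 169 of all 6214, and within 20% stayed 194 and 843. Every one of the 200 stayed within 25%, as did 1783 of the 6214.

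**Figure D1:**
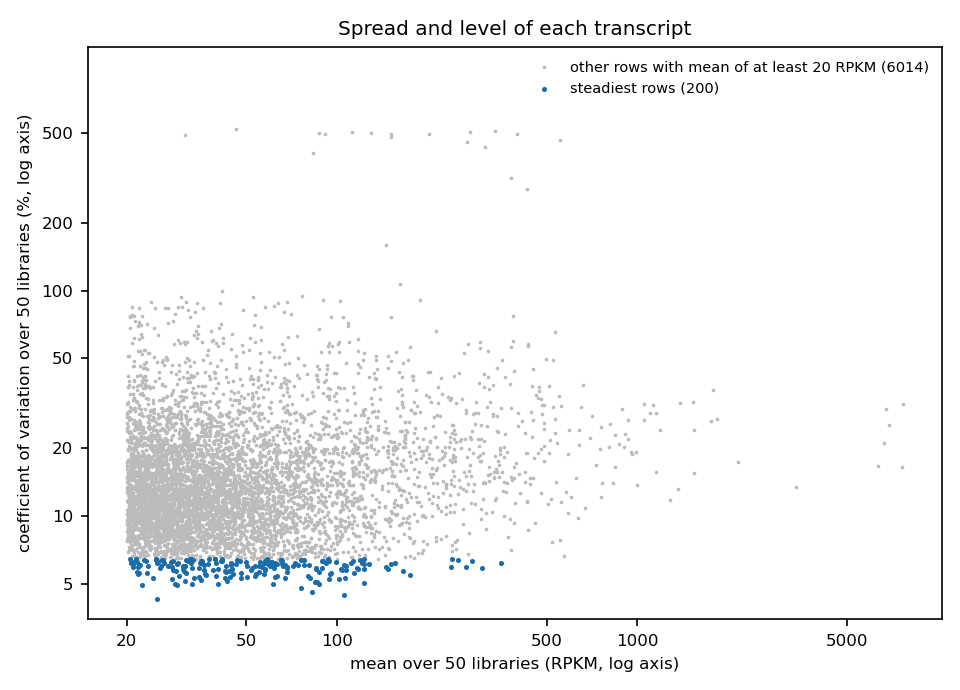
Each point is a transcript with a mean of at least 20 RPKM, placed by its mean over 50 libraries (RPKM, log axis) and its CV (%, log axis). The 200 steadiest (blue) run along the lower edge from 20.5 to 352 RPKM, and none lies among the 119 rows of 400 RPKM or more.

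The steady transcripts were of middling abundance and came from long rows. Their means ran from 20.5 to 352 RPKM with a median of 52.2, and the median of all 6214 was 37.7. They made up 2.42% of rows between 20 and 50 RPKM, 5.36% between 50 and 100, 4.80% between 100 and 200, 2.99% between 200 and 400, and none of the 119 rows above. The most abundant transcripts in these cells were thus absent from the list, and the median CV of those 119 rows was 21.9%. Row length had a median of 2208.5 bases against 1742 for all, and the steady share rose from 0.251% of rows under 1000 bases to 7.69% of rows of 4000 bases or more.

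Longer and more abundant rows collect more reads, and read counting alone adds to a CV. The median library held 1057 reads for the median steady transcript and 646.5 reads for the median row of all. The CV that counting alone would give, computed from these reads as Poisson noise, had a median of 3.08% for the steady transcripts and 3.88% for all. Counting noise made up a median of 27.4% of their squared CV, from 5.49% to 73.5%, where the median of all rows was 9.90%. With the counting part taken off, the remaining CV had a median of 5.07% for the steady transcripts and 12.1% for all rows of at least 20 RPKM.

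Names were known for few of them. The maize reference table matched 157 of the 200 to a RefSeq gene, gave a name to 23, and left 177 with an ID only. The named ones are 3.33% of the 690 named rows of at least 20 RPKM, near the 3.22% that the 200 are of all such rows. Of the functional lists matched by name, 15 of 170 rows of at least 20 RPKM were steady (8.82%). They were 5 of 32 rows for chromatin and the transcription machinery, 5 of 34 for protein kinases and phosphatases, 2 of 13 translation factors, 1 of 18 chaperones and folding enzymes, 1 of 14 proton pumps and respiratory genes and 1 of 13 cytoskeletal genes. None came from the 14 ribosomal protein rows, whose median CV was 16.7%, the 12 splicing rows, the 9 ubiquitin pathway rows, the 9 membrane traffic rows or the 2 RNA silencing rows. No test was run on these counts, and the lists hold named genes only. The lists were also chosen with earlier results of these data known, so nothing is read from their share.

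Some steady transcripts were named for kinases, phosphatases or their regulators, though the 34 kinase and phosphatase rows matched by name had a median CV of 11.2%. The cka2 transcript (GRMZM2G047855), for a catalytic subunit of the kinase CK2, which phosphorylates many nuclear and cytosolic proteins, had a CV of 5.10%. It stood at 84.6, 88.3, 90.6 and 83.2 RPKM in the GFP libraries of preps 1, 2, 3 and 4, and at 79.8 (lowest), 85.7 (median) and 96.1 RPKM (highest) in the 46 regulator libraries. All its GFP values fell within the range of the regulator libraries. The kinase's regulatory subunit ckb1 was of similar abundance, at 62.5 RPKM, and had a CV of 14.3%, ranging from 44.7 to 78.5 RPKM.

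The SnRK2.8 transcript (GRMZM2G138861) encodes a kinase of the SnRK2 family, which acts in abscisic acid and osmotic stress signalling. Its GFP values were 46.2, 53.4, 47.7 and 46.0 RPKM in preps 1 to 4, and the regulator libraries ran from 44.6 through a median of 50.4 to 54.8 RPKM. At a CV of 5.36% it was the steadiest of the 4 SnRK2 rows of at least 20 RPKM found by name. SnRK2.6 followed at 9.13%, SnRK2.2 at 12.0% and SnRK2.1 at 24.1%. The last of these ranged from 14.4 to 45.1 RPKM over the same libraries.

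The prh1 transcript (GRMZM2G112240, also listed as PP1), named for a protein phosphatase, stood at 79.2, 86.4, 78.8 and 81.2 RPKM in the GFP libraries of preps 1 to 4. In the regulator libraries it lay between 71.0 and 88.0 RPKM, with a median of 81.5. Its lowest library was OCL4 in prep 3, 13% below its mean.

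A pair of rows named after SNF4, the yeast regulatory subunit of the energy-sensing kinase SNF1, were both steady. The akin1 row (GRMZM2G047774) stood at 57.4, 65.0, 62.9 and 61.7 RPKM in the GFP libraries, and at 54.5, 62.1 and 74.0 RPKM (lowest, median, highest) in the regulator libraries. Its highest value, in NAC119 cells of prep 3, was 19.8% above its mean and among the larger departures in the set. The Snf-4 like row GRMZM2G014170 stood at 44.0, 48.9, 48.5 and 46.3 RPKM in the GFP libraries and from 41.0 to 52.9 RPKM in the others. It also had the largest difference between preps of all 200, with 43.3 ± 1.74 RPKM (SD, n = 12) in prep 1 and 50.0 ± 1.88 (n = 12) in prep 3.

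**Figure D2:**
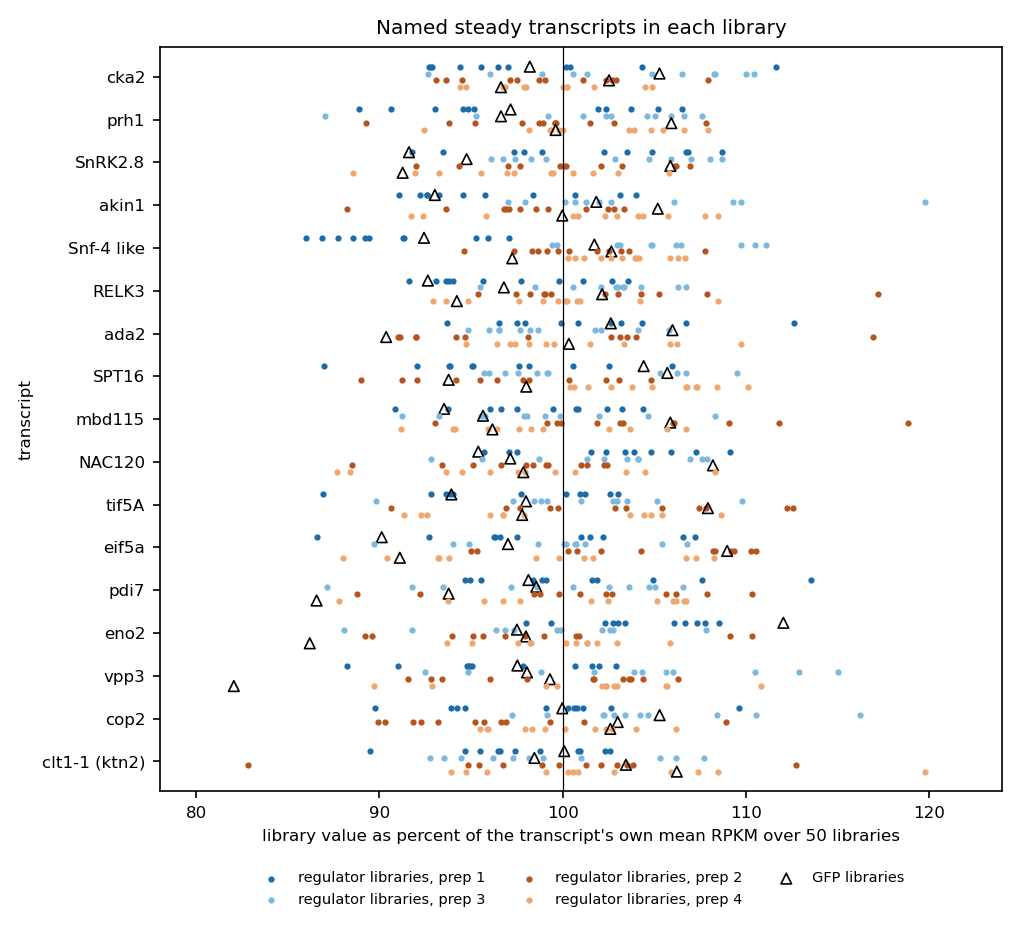
Each point is 1 library's RPKM as a percent of that transcript's mean over 50 libraries, for 17 named steady transcripts. Colours mark preps 1 to 4 and open triangles the 4 GFP libraries, which lie within the other points for most transcripts. Low exceptions are vpp3, eno2 and pdi7 in the prep 4 GFP library and ada2 in that of prep 2. A high exception is eno2 in the prep 1 GFP library.

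Several steady transcripts serve chromatin and transcription. RELK3 (GRMZM2G550865), a relative of rel2 in the TOPLESS type of corepressors, which hold target genes silent by recruiting histone deacetylases, had the lowest CV of any named member, 4.99%. It stood at 56.8, 62.6, 59.3 and 57.8 RPKM in the GFP libraries and at 56.2, 61.4 and 71.9 RPKM (lowest, median, highest) in the regulator libraries. MYB131 cells of prep 2 were the highest library, 17.2% above the mean. The rel2 row itself had a CV of 11.5% at 36.5 RPKM, with a range of 27.5 to 46.8.

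The ada2 row (GRMZM2G177974) encodes the adaptor of the histone acetyltransferase GCN5, and its ID matched more than 1 RefSeq gene. It stood at 37.3, 32.9, 38.6 and 36.5 RPKM in the GFP libraries, the prep 2 value being the lowest of all 50 libraries, and at 33.1, 36.0 and 42.5 RPKM in the regulator libraries. The highest library was again MYB131 of prep 2. Its partner gcn5 was also among the steadier rows, with a CV of 7.41% (rank 514 of 6214) against 5.54% for ada2.

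SPT16 (GRMZM5G806358, also listed as gtc102) is a subunit of FACT, the histone chaperone that opens nucleosomes ahead of polymerases. Its ID also matched more than 1 RefSeq gene. At a mean of 21.7 RPKM it was among the least abundant named members, with 22.7, 20.4, 23 and 21.3 RPKM in the GFP libraries and 18.9 to 23.9 RPKM in the regulator libraries. The other FACT subunit, ssrp1, had a CV of 13.7% against 5.64% for SPT16, and ran from 34.9 to 69.4 RPKM.

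The mbd115 row (GRMZM2G157470) encodes a protein with a methyl-CpG-binding domain, the fold that reads methylated cytosines in animals. GFP cells had 81.6, 92.4, 83.5 and 83.9 RPKM and the regulator libraries 79.3, 86.9 and 103.8 RPKM (lowest, median, highest). The highest was bHLH97 of prep 2, 18.9% above the mean. Of 6 such rows of at least 20 RPKM found by name, mbd115 (5.68%), mbd105 (6.63%) and mbd111 (7.95%) had low CVs. The highest CV was that of mbd123, with a mean of 43.4 RPKM and a top value of 65.4. The mbd105 row missed the limit of 200 at rank 256.

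NAC120 (GRMZM2G176677), a member of the plant NAC family of transcription factors whose ID matched more than 1 RefSeq gene, stood at 23.4, 26.5, 23.8 and 24 RPKM in the GFP libraries. In the regulator libraries it ran from 21.5 to 26.7 RPKM, with a median of 24.7 and a CV over all libraries of 5.30%. The other 11 NAC rows of at least 20 RPKM found by name had CVs from 10.2% upward. The highest of these, 495%, belonged to NAC119, a gene that was itself introduced in its own libraries.

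Both rows found by name for the translation factor eIF5A, which keeps ribosomes moving through difficult stretches of coding sequence, were steady and abundant. The tif5A row (GRMZM2G144030) stood at 286, 329, 299 and 298 RPKM in the GFP libraries of preps 1 to 4 and at 265, 305 and 343 RPKM (lowest, median, highest) in the regulator libraries. The eif5a row (GRMZM2G113696) stood at 218, 264, 235 and 220.5 RPKM in the GFP libraries and at 209.6, 244 and 268 RPKM in the regulator libraries. Both rows were highest in prep 2 among the GFP libraries and lowest of all in CSD4 cells of prep 1. Their values correlated with r = 0.88 over the 50 libraries, the fourth highest of the 19900 pairs of steady transcripts, and how reads shared by near-identical rows were counted is not given in the sources used here. With medians of 4948.5 and 4361.5 reads per library, counting made up 5.8% and 5.49% of their squared CVs, the smallest parts in the set.

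Among metabolic and secretory genes, the enolase row eno2 (GRMZM2G048371), for the glycolytic enzyme that makes phosphoenolpyruvate, stood at 186, 163, 162 and 143 RPKM in the GFP libraries of preps 1, 2, 3 and 4. The GFP libraries thus held both its highest and its lowest value of all 50, and the regulator libraries lay between 147 and 184 RPKM. Its CV was 5.73%. The other enolase row found by name, eno1, was more abundant, at 468 RPKM. It had a CV of 19.0%, with libraries from 282 to 649 RPKM.

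The pdi7 row (GRMZM2G159369) encodes a protein disulfide isomerase, an enzyme that forms and rearranges disulfide bonds in secreted proteins. Its GFP values were 61.0, 58.3, 61.2 and 53.8 RPKM, and the regulator libraries ran from 54.2 to 70.6 RPKM. Among the 5 disulfide isomerase rows of at least 20 RPKM found by name its CV was the lowest, 6.12%, followed by 7.34% for pdi6. The highest, 22.4%, was that of the row named pdi. That row was the most abundant of them at 116 RPKM and reached 216 RPKM in 1 library.

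The vacuolar proton pump row vpp3 (GRMZM2G421857) stood at 119.9, 122, 120.5 and 101 RPKM in the GFP libraries, and at 108, 125 and 141 RPKM (lowest, median, highest) in the regulator libraries. The prep 4 GFP value was 18.0% below its mean and lay under every other library. The related row vpp2 had nearly the same CV, 6.66% against 6.44%, at 176 RPKM, and stood outside the 200 at rank 264.

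Of the remaining named rows, cop2 (GRMZM2G028929) ran from 51.5 to 66.7 RPKM with GFP values of 57.4, 59.1, 60.5 and 58.9. The clt1-1 row (GRMZM2G017305, also listed as ktn2) ran from 17.4 in DOF7 cells of prep 2 to 25.1 in GBP15 cells of prep 4, and its GFP values were 21.0, 21.7, 20.7 and 22.3 RPKM. At 443.5 reads in the median library, counting made up 62.2% of its squared CV, more than in any other named member. The others with a name were chr122, gbp1, Ligatin, ACK2 and GRF4, with CVs from 6.04% to 6.44%.

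Of the 12 families and complexes looked up, 10 held 1 steady row beside other rows of at least 20 RPKM that were not among the 200, and eIF5A and the SNF4 type had both of their rows in the set. In CK2, FACT and the pair of GCN5 and ADA2 the other row encodes a partner subunit, and in the rest it encodes a relative. The families and complexes were chosen because they hold a steady member, so these contrasts describe the members and were not tested. Rows were matched to them by name only, so relatives without a name are not counted.

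**Figure D3:**
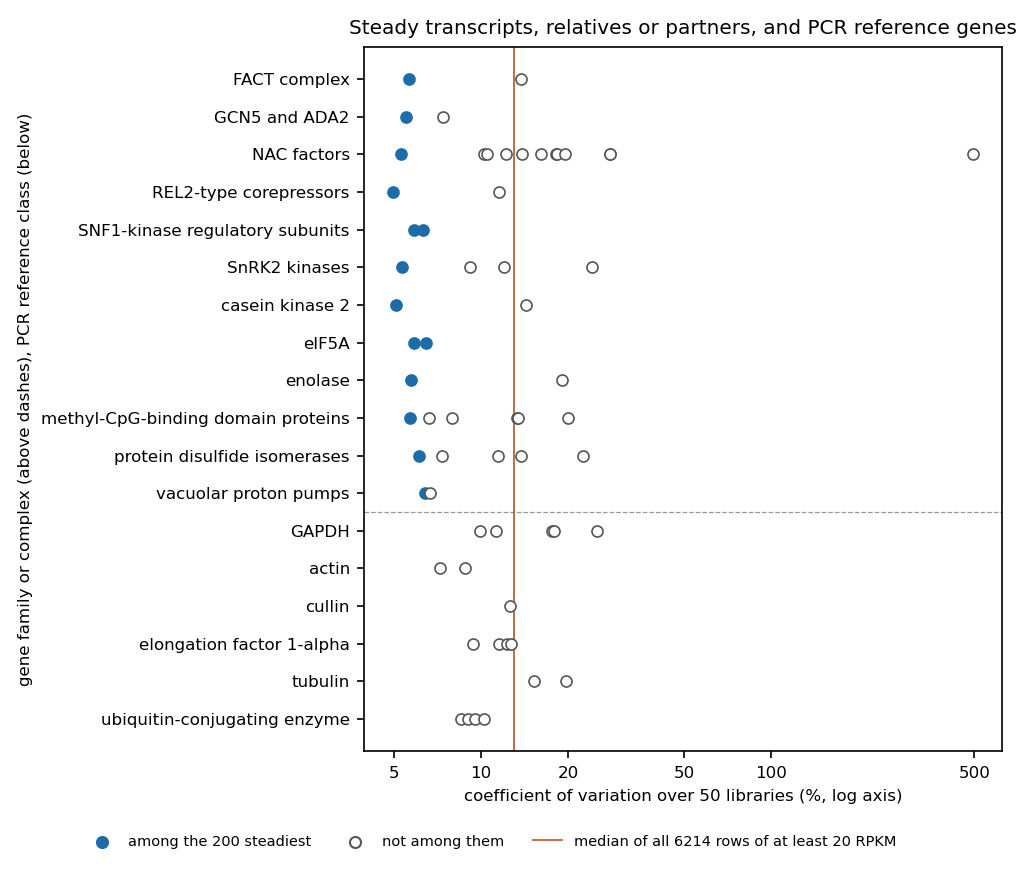
Each circle is a row of at least 20 RPKM found by name, placed by its CV over 50 libraries (%, log axis). Rows are grouped by gene family or complex, or by class of PCR reference gene. Filled circles are among the 200 steadiest; in most groups above the dashes 1 filled circle stands left of open ones, and the reference classes hold open circles only, from 7.25% to 25.1%.

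Of 32 rows found by name in the classes used as PCR references, 18 reached 20 RPKM, with CVs from 7.25% to 25.1%. None of the 18 was among the 200, which are 3.22% of all rows of at least 20 RPKM. With so few rows at that share, nothing is read from this, and rows without a name were not looked up. The steadiest was Actin-7 (GRMZM2G067985), at 34.2 ± 2.48 RPKM (SD, n = 50) with a range of 30.4 to 40.3 and rank 451 of 6214. The 4 ubiquitin-conjugating enzyme rows had CVs of 8.52% to 10.2%, the 4 elongation factor 1-alpha rows 9.42% to 12.7%, and the single cullin row 12.6%. The GAPDH rows ran from 9.93% for GPC1 to 25.1% for gpc3, and the tubulin rows tua4 and tua5 stood at 15.3% and 19.6%. Abundance did not order them: gpc2, at 504 RPKM, had a CV of 11.3%, and GPC1, at 75.4 RPKM, had 9.93%.

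The summed level of the 200 lay between 12652 RPKM in CSD4 cells of prep 1 and 13856 RPKM in NAC119 cells of prep 3. With each transcript set to its own mean, the median transcript stood between 0.964 in NAC25 cells of prep 2 and 1.045 in NAC119 cells of prep 3. The medians of the preps were 0.989, 0.992, 1.015 and 1.002 for preps 1 to 4, so prep 3 was a little higher than the others. The 200 took 2.63% to 2.96% of each library's reads, the lowest in TCP23 of prep 3 and the highest in MYB131 of prep 2.

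Single libraries did stand apart in the spread among the 200. The distance between the lower and upper quartile of relative level was widest in MYB131 of prep 2, at 10.9%, and narrowest in GBP15 of prep 4, at 5.21%. MYB131 of prep 2 was also the library farthest from the mean for 18 transcripts, ZFL1 of prep 4 for 13 and NAC29 of prep 1 for 12. The ZFL1 library of prep 4 had the fewest reads of all, 6830505. Such counts were not made over all rows, so whether these libraries stand apart for the 200 in particular is not shown. The largest single departure was 23.3%, for GRMZM2G083459 in MYB131 of prep 2, at 99.3 RPKM against a mean of 80.6. GRMZM2G036905 in OFP9 of prep 2 (22.1% above), GRMZM2G173943 in MYB131 of prep 2 (21.8% above) and GRMZM2G008273 in EREB69 of prep 2, at 17.4 RPKM against a mean of 22.1, followed.

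**Figure D4:**
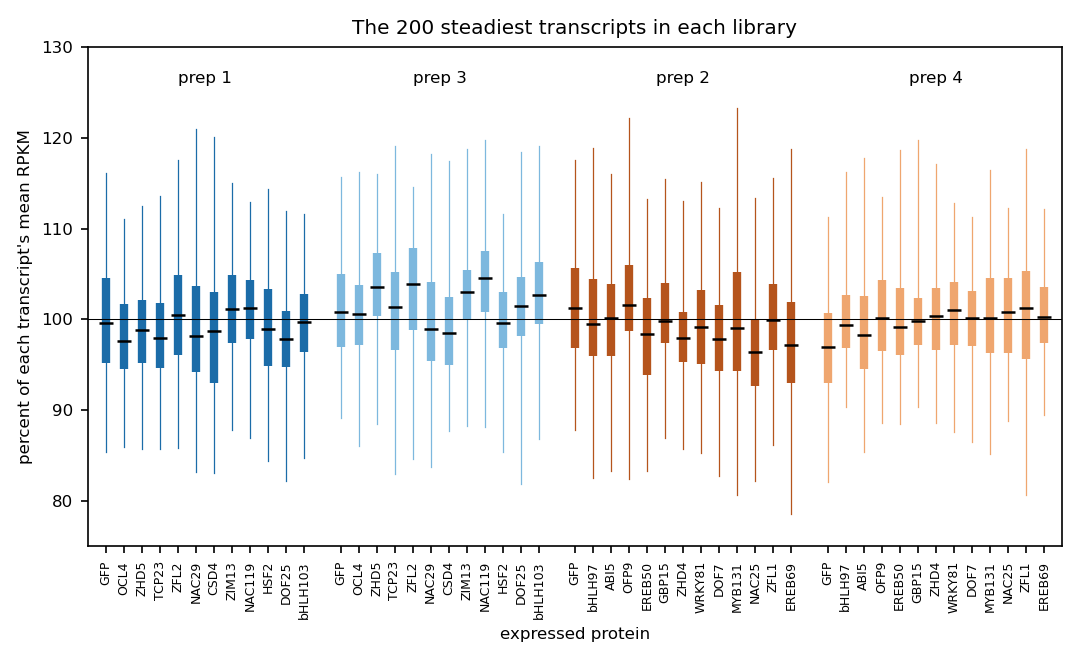
For each library, named by the expressed protein and grouped by prep, the thin line spans the lowest to the highest of the 200 transcripts, the thick bar the quartiles and the black mark the median, in percent of each transcript's mean RPKM. Medians lie between 96.4% and 104.5%, and MYB131 in prep 2 has the widest bar.

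All 4 GFP libraries lay within the range of the regulator libraries for 166 of the 200 transcripts. A GFP library was the lowest of all 50 for 24 of the 200 (12.0%) and the highest for 12 (6.0%), where the shares of all 6214 rows were 8.16% and 11.2%. The prep 4 GFP library alone was the lowest for 17 (8.5%) and the highest for 0, where it was so for 2.43% and 2.30% of all rows. Its median relative level of 0.970 was among the lowest. Of all 6214 rows, 80.8% had the GFP libraries within the range of the others, against 83.0% of the 200.

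Each regulator was compared with GFP of its own preps in limma on log2(RPKM + 0.5), fitted over all 28122 rows that passed a filter of 1 RPKM in at least 2 libraries. All 200 steady transcripts passed it, and comparisons in the same prep pair share their GFP libraries. Of the 4600 member tests, 0 passed an adjusted p below 0.05 together with a log2 change of 1 or more in size, where 0.208% of all tests did so (1348 of 646806) and 0.0399% of those on rows of at least 20 RPKM. Without the fold minimum 0 were called too, against 0.295% of all tests and 0.195% of those on rows of at least 20 RPKM, and limma-voom, run on recovered reads, gave 0 as well. At an unadjusted p below 0.05 stood 158 member tests (3.43%), against 7.60% of all. The rule took rows that varied little in these same libraries, so nothing is read from these counts.

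No steady transcript moved by 0.5 or more on the log2 scale in any of the 23 comparisons, a size passed by 14.4% of all tests. The median absolute log2 change was 0.06 for the 200 and 0.19 for all rows. Small changes were built into the choice of rows that varied little in these same libraries. All rows here also include rows under the minimum mean of the rule, so nothing is read from either difference. The largest rise was GRMZM2G104418 in ZFL1 cells, at 64.8 and 60.5 RPKM against 51.2 and 48.9 in GFP, a log2 change of 0.32 ± 0.08 (SE) that was not called. The largest fall was GRMZM2G125138 in NAC25 cells, at 26.4 and 28.3 RPKM against 34.8 and 33.6, a log2 change of -0.32 ± 0.08 that was not called either. In both cases the 2 regulator libraries and the 2 GFP libraries did not overlap.

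Named members with larger fitted differences were pdi7 and Ligatin. The pdi7 row stood at 68.6 and 66.3 RPKM in DOF7 cells against 58.3 and 53.8 in GFP, with a log2 difference of 0.27 ± 0.10 (SE), and its prep 4 GFP value is the lowest of all libraries. Ligatin (GRMZM2G128189) stood at 32.7 and 31.7 RPKM in NAC29 cells against 27.4 and 25.6, a log2 difference of 0.28 ± 0.10. Neither was called.

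In MYB131 cells 1015 rows (3.61%) passed the adjusted p alone, and the 200 ran from -0.22 to 0.26 on the log2 scale with a median of 0.02. EREB69 and NAC29 each had 1.44% of rows past it, and the 200 ran from -0.21 to 0.26 and from -0.31 to 0.28. The range and the median absolute change of the 200, at 0.09, were the largest of the 23 comparisons in NAC29 cells. An unadjusted p below 0.05 was reached by 16 of the 200 (8%) in NAC29 cells, where 12.4% of all rows reached it, and by 22 (11%) in MYB131 cells, where 14.6% did. The choice of the 200 used these libraries, so nothing is read from their lower shares.

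**Figure D5:**
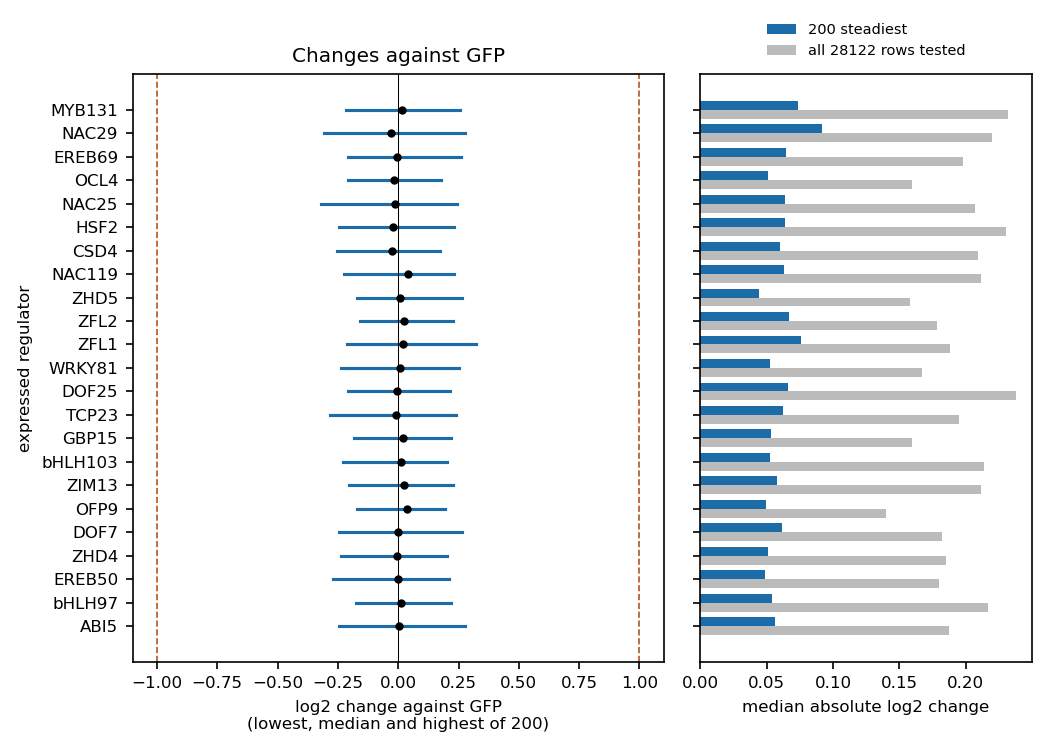
Left, the lowest, median (point) and highest log2 change against GFP among the 200 steady transcripts for each of 23 regulators, with dashed lines at the call limit of 1; right, the median absolute log2 change of the 200 (blue) and of all 28122 rows tested (grey). Every blue range lies within 0.32 of 0, and every blue bar is shorter than its grey one. The 200 were chosen for varying little in these same libraries, so nothing is read from either.

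Between preps the steady transcripts differed by small amounts. Prep 3 against prep 1 gave a median log2 difference of 0.03 over the 200, from -0.12 to 0.21, and prep 4 against prep 2 gave 0.01, from -0.14 to 0.13. The median absolute log2 differences were 0.042 and 0.038, against 0.093 and 0.150 for all rows of at least 20 RPKM. With the expressed protein as a block, limma called 16 of the 200 at an adjusted p below 0.05 between preps 3 and 1 (15 higher in prep 3), where 12.7% of all rows tested were called, 6.19% as higher, and 18.1% of rows of at least 20 RPKM. Between preps 4 and 2 it called 22 (14 higher in prep 4), where 33.4% of all rows were called, 15.5% as higher, and 52% of rows of at least 20 RPKM. No member passed a log2 change of 1 in either, and again the choice of members used these libraries.

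The named members at the ends of this range were the Snf-4 like row GRMZM2G014170, 0.21 higher on the log2 scale in prep 3 than in prep 1, and eno2, with 174 ± 6.70 RPKM (SD, n = 12) in prep 1 and 164 ± 8.72 (n = 12) in prep 3. In the other pair, SPT16 was higher in prep 4, at 22.7 ± 0.79 RPKM (n = 13) against 21.0 ± 1.06 (n = 13) in prep 2. The eif5a row was lower there, at 237 ± 16.6 RPKM against 254 ± 13.5. For eif5a the difference of means was about as large as the SD within a prep, and for the other 3 it was larger.

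The spread of each steady transcript was split by its source in the design. A median of 2.63% of the sum of squares lay between the prep pairs, 9.16% between the preps of a pair, 50.3% between the expressed proteins and 32.4% in the remainder. For all rows of at least 20 RPKM the medians were 4.31%, 16.2%, 45.8% and 26.1%. These sources hold 2.04%, 4.08%, 46.9% and 46.9% of the degrees of freedom. The parts for prep were smaller in the steady transcripts than in all rows. The rule used the spread over all preps, and counting noise was a larger part of the squared CV in the steady transcripts. Nothing is therefore read from this difference.

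Steadiness in libraries that took no part in a choice could be measured, because the prep pairs share no library. The 200 steadiest rows by the 24 libraries of preps 1 and 3 alone, with the minimum of 20 RPKM also applied to the mean of those libraries, had a median CV of 5.34% there and 6.75% in the 26 libraries of preps 2 and 4, where all rows of at least 20 RPKM had a median of 13%. The 200 chosen on preps 2 and 4 alone had 5.47% there and 6.55% in preps 1 and 3, where all rows had 11.7%. In each direction 199 of the 200 had a CV in the other pair below the median of the rows there. These lists differ from the 200 described here. A row keeps its length in both pairs, and read counting adds to its CV in each. The part of row length and read counting in these low CVs was not tested. The exact ranks carried over less well, with 50 rows in both lists of 200, where 200 rows are 3.22% of the 6214 rows of at least 20 RPKM. Among these 50 were NAC120, RELK3, SnRK2.8, eno2, SPT16 and cop2.

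Most pairs of steady transcripts were weakly correlated. The median correlation of RPKM over the 50 libraries, which share preps and GFP controls, was 0.077 for the 19900 pairs of members, with 5% below -0.272 and 5% above 0.412. For all pairs of rows of at least 20 RPKM the median was 0.026 and these limits were -0.540 and 0.589. Of the 19900 member pairs, 12 exceeded 0.7 and 3 exceeded 0.9. Of the 19303791 pairs of all these rows, 364552 and 9034 did so. The rule took rows that varied little in these same libraries. Counting noise was also a larger part of their squared CV. Nothing is therefore read from the differences between member pairs and all pairs. The closest, GRMZM5G812289 and GRMZM2G162859, reached 0.998 with medians of 2183 and 2126 reads, and GRMZM5G858444 and GRMZM2G036905 reached 0.985. GRMZM2G096240 and GRMZM2G098335, which stand 2 places apart in the reference's gene order, reached 0.938. Such pairs may share reads or overlap, which the sources used here do not show, so these 3 pairs are uncertain as separate measurements.

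The rows most like RELK3 over the 50 libraries were GRMZM2G316967 (r = 0.71), GRMZM2G134045 (0.68) and the steady row GRMZM2G052403 (0.65). Those most like cka2 were the fructokinase row frk1 (0.66), GRMZM2G074530 (0.65) and GRMZM2G118409 (0.63), none of them a member. These are descriptions over libraries that share preps and depth.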

How the data were processed

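Polyadenylated RNA of 50 libraries was measured. The authors deposited 1 table of RPKM for 30213 rows; per the submitters' processing notes, HISAT2 2.1.0, featureCounts of Subread 1.6.3, edgeR 3.20.9 and the B73 RefGen_v3 build were used. How reads shared by several rows were counted is not given in the sources used here. From the RPKM steps, whole reads (within 0.01) were recovered for 30204 of 30213 rows, and library scaling factors of 0.939 to 1.09. In simulated tables, 3022 of 3022 rows were recovered. Reads without molecular identifiers are not independent molecules, so counting noise is a lower limit.

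The members were the 200 rows of lowest CV among rows with a mean of at least 20 RPKM. Members, lists, families, reference classes and the naming rule were chosen with earlier results of these data known. Named were members with a name in the reference table that had the 10 lowest CVs, the 3 highest or lowest means, up to 3 per functional list, the largest prep differences or the 3 largest departures; other IDs, Ligatin and the remaining names were chosen after their values were seen. A named member that the rule covers is not reported here. Names came from the alias column of RefSeq genes on assembly Zm-B73-REFERENCE-NAM-5.0, whose build differs from the authors', so no positions are given. Regulators were compared with GFP in limma 3.58.1 (R 4.3.3) on log2(RPKM + 0.5), 25 groups in 1 fit, with trended empirical Bayes variances and Benjamini-Hochberg adjustment within each comparison. CVs were computed in Python 3.11.15 with pandas 2.3.3.

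The labels number replicates by prep, so same-numbered libraries share a prep, and an alternative fit had prep as a block. To check the pairing, prep differences of pairs of groups correlated over rows with a median of 0.131 (-0.210 to 0.497, 66 pairs) in preps 1 and 3 and 0.253 (-0.047 to 0.474, 78 pairs) in preps 2 and 4.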

Additional observations from a re-analysis of the deposited data

How the results depend on the processing

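No member was called against GFP by limma-voom at its single setting, or by limma under any alternative run: pseudocounts of 0.1 and 1, no filter, median-ratio rescaling (factors 0.991 to 1.02), no EREB69 libraries, the adjusted p alone, or any 1 of 50 libraries left out (0 calls in each, with 109 to 268 member tests at an unadjusted p below 0.05 over the alternatives). With prep as a replicate block 0 members were called, as without it, and 268 in place of 158 member tests had an unadjusted p below 0.05. The rule took rows that varied little in these same libraries, so nothing is read from the 0 calls under any setting. Calls between preps ranged from 14 to 16 and from 19 to 25.

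Membership depended more on the choices. Of the 200, 116 remained with the median absolute deviation over the median in place of the CV and 118 with the CV over the 25 group means. With preps 1 and 3 only 103 remained, and with preps 2 and 4 only 119. A minimum mean of 50 RPKM left 103, a number fixed by the cut, since the other 97 had means under 50 RPKM. Between 183 (without EREB69 of prep 2) and 196 remained with 1 library left out, and 181 without both EREB69 libraries. Chosen after seeing the data were 2 more settings: 145 remained with the counting part taken off, and 197 when 1 row of each pair correlated over 0.9 was dropped. The median CV of the members was 5.90% to 6.05% with 1 library left out. Among the 400 steadiest rows 23 were on a functional list, against 15 among 200. The share of promoters with a TATA motif was not run, since no promoter sequences were used here. Low reads limit the precision for members such as clt1-1, where counting made up 62.2% of the squared CV.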
